A study of Mus musculus with 12 samples.

Results

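Neutrophils from Runx1 knockout (Runx1KO) mice were compared with Control neutrophils after 2 h with vehicle alone, over all expressed genes. The comparison was between 6 of the 12 libraries of the series, 3 of Runx1KO with vehicle and 3 of Control with vehicle, chosen by their genotype and treatment labels; all 12 entered the model and shared its estimate of spread. With the 6 vehicle libraries fitted alone, 100 genes were called, against 123 from the model of all 12. The remaining 6 libraries, 3 of each genotype, were kept for 2 h with 100 ng/mL lipopolysaccharide (LPS), a bacterial wall component, and serve here as a second set in which the same genes can be looked up. All mice were C57BL/6. Marrow was crushed out of hind limb bones, and CD11b+, Ly6G+ cells without Siglec F or F4/80 on their surface were sorted, kept in buffered salt solution with serum, and lysed for low-input RNA-seq.

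The labels call the genotypes only Runx1KO and Control. The sources used here give neither the deleted exons nor the Cre driver. The design text describes Control material as LKS- marrow cells pooled from a Runx1f/f and a Runx1f/- mouse, the latter with 1 mutated germline allele, whereas the label of every Control library describes sorted neutrophils. LKS- cells are progenitors, so the sources differ on what Control is. The labels do not tie the 3 libraries of a group to separate mice. The p-values therefore measure the spread between libraries, which may be partly technical.

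Runx1 is the DNA-binding subunit of core-binding factor, which it forms with Cbfb, and it is needed for the emergence of blood stem cells in the embryo. In adult marrow it is known to act in the maturation of megakaryocytes and of B and T cells and in the early steps of granulocyte development, and it both activates and silences genes. Neutrophils are short-lived granulocytes that make their granule proteins in the marrow in a fixed order, primary, secondary and then gelatinase granules, and release cytokines when microbial products are sensed.

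A total of 21096154 to 26225169 reads were counted per vehicle library. Of 37310 genes in the table, 12917 were expressed enough to be tested, and these held 99.93 to 99.96% of the counts. The unit of a level is CPM, the count of a gene relative to its library's total after TMM normalization. Neutrophil transcripts were abundant in both genotypes: the secondary granule gene Ngp lay between 17530 and 41170 CPM and Ltf, lactoferrin, between 9667 and 19150 CPM. Itgam, which encodes CD11b, lay between 1057 and 1741 CPM. The progenitor marker Kit lay between 2.45 and 14.1 CPM. Adgre1, the gene of the F4/80 antigen, stood at 15.5, 74.9 and 16.4 CPM in Control against 24.8, 223 and 47.4 CPM in Runx1KO.

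The targeted gene was counted in every library. Runx1 stood at 36.8, 56.2 and 38.8 CPM in Control libraries 1, 2 and 3 and at 60.5, 68.3 and 75.4 CPM in Runx1KO libraries 1, 2 and 3, so the groups did not overlap and Runx1KO was the higher. The log2 fold change was 0.63 (SE 0.29) and did not pass the test (edgeR adjusted p = 0.656, and 0.180 with the library number as a block). Reads of every exon enter the count, those beside a deletion included, so this level is no test of the genotype labels. Of the other 8 tested genes of the core-binding factor list, none passed in either fit. Cbfb stood at 21.0, 25.5 and 32.0 CPM in Control against 19.3, 21.9 and 29.7 CPM in Runx1KO, Runx2 at 11.6, 11.4 and 18.9 against 9.47, 9.53 and 21.8 CPM, and Runx3 at 6.21, 10.6 and 9.69 against 8.54, 6.29 and 21.3 CPM.

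With vehicle, 45 genes were higher in Runx1KO neutrophils and 78 lower, which is 0.348% and 0.604% of the genes tested and 0.952% in all (edgeR quasi-likelihood test, Benjamini-Hochberg adjusted p below 0.05). The differences were few and large. Every called gene differed by more than 2-fold and had groups that did not overlap, and 41 of those higher and 62 of those lower differed by at least 4-fold. The median log2 fold change was 3.90 for the genes called higher and −3.02 for those called lower, against 0.002 over all genes tested, of which 50.3% were positive. Among all genes, the groups did not overlap with Runx1KO higher in 700 (5.42%) and with Runx1KO lower in 1010 (7.82%). At an unadjusted p below 0.05 there were 1006 genes, 406 higher and 600 lower.

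The levels of the lower and of the higher group are given for each direction. A large rise has to start low and a large fall has to start high, so the starting levels themselves are no result. Of the 45 genes called higher, 31 had a Control mean below 1 CPM, and 15 reached a Runx1KO mean of at least 10 CPM. Of the 78 called lower, 36 had a Control mean of at least 10 CPM and 12 of at least 100 CPM, and 36 ended below 1 CPM in Runx1KO. Control was at 0 counts for 5 genes called higher, and Runx1KO was at 0 counts for 5 called lower. For 4288 genes (33.2%) the 95% interval of the log2 fold change lay within 1 of 0. Among the 5890 genes with at least 10 CPM this held for 3313 (56.2%), and 27 of the 5890 were called.

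**Figure D1:**
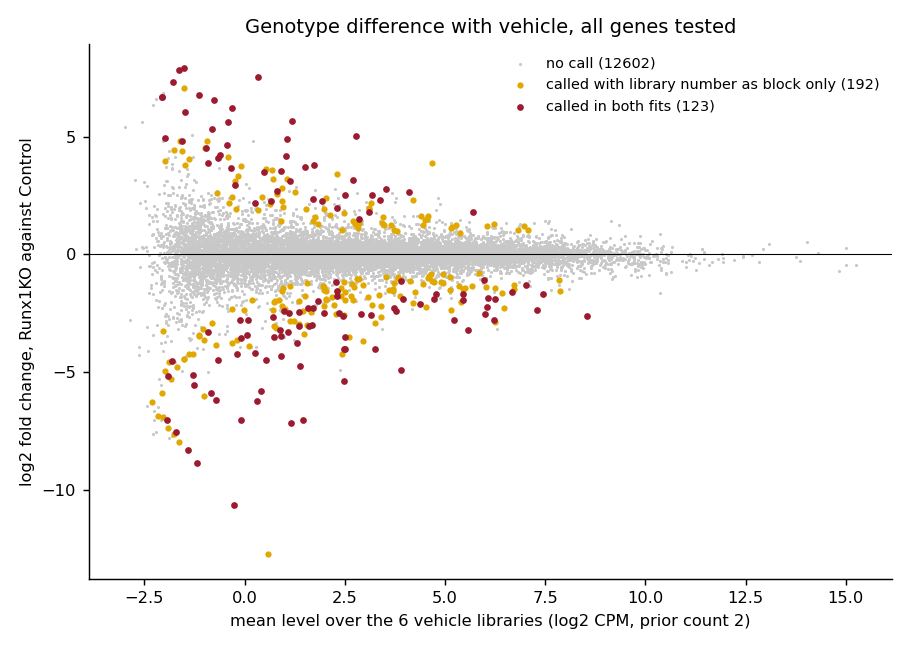
Log2 fold change of Runx1KO against Control with vehicle (vertical axis) against the mean level over the 6 libraries (horizontal axis, log2 CPM), 1 point per gene tested. The 123 genes called in both fits are dark red, the 192 called with the library number as a block only are yellow, and every gene called in both fits differed by more than 2-fold, while the block-only set also holds smaller differences.

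Control and Runx1KO libraries with equal numbers deviated together from their group means, and the number was used as a block beside the plain comparison. After subtraction of the group means, the log2 levels of libraries 1, 2 and 3 correlated between Control and Runx1KO with r = 0.479, 0.374 and 0.461 across genes. Pairs of different numbers gave r between −0.307 and −0.119. The 3 deviations of a gene in a group sum to 0, so positive same-number values force negative values elsewhere. The negative values therefore add nothing to the same-number correlations. Both libraries numbered 2 held Y-linked transcripts and no Xist, and those numbered 1 and 3 held Xist. With the block, 114 genes were higher (0.883%) and 201 lower (1.56%), 315 in all (2.44%). All 123 genes of the plain comparison were among the 315, no gene changed sign, and the log2 fold change of a called gene moved by at most 0.55. Of the 192 genes added, 69 were higher and 123 lower, and 179 had groups that did not overlap. Their adjusted p in the plain comparison had a median of 0.120 and reached 0.889.

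The number of calls rested on every library. Without Control library 1, 2 or 3 the plain comparison called 15, 20 or 18 genes higher and 32, 50 or 34 lower. Without Runx1KO library 1, 2 or 3 it called 23, 27 or 29 higher and 34, 35 or 37 lower. When all libraries of a number were left out, so that 2 libraries faced 2, it called 0 higher and 2 lower without number 1, 0 and 1 without number 2, and 3 and 3 without number 3. Of 49 genes named below that were called in the plain comparison, 23 kept their call with each single vehicle library left out in turn. These were Arhgap12, C4b, Dmpk, Grb10, Ctla2a, Foxo1, Itga2b, Gp5 and Procr among the rises, and Fbxo10, Cystm1, Cd72, Ggt1, Gpr141, Sema4f, Stk39, Cd3d, Nrp1, Acvrl1, Cd63, Ifitm1, Ldha and Ms4a1 among the falls. The other 26 lost it without at least 1 library, and Palld, Sbf2, Ppbp, Slamf1, Ets1, Mcpt8 and Sema7a lost it whichever of the 6 was left out.

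Among called genes with a mean log2 CPM of 0 or more over the 6 libraries, the 3 largest rises were in genes with low levels in Control. C4b, a complement component, stood at 0, 0.200 and 0 CPM in Control against 18.3, 5.41 and 17.7 CPM in Runx1KO (log2 fold change 7.55, SE 1.06, adjusted p = 0.00612). Fam19a4, a secreted chemokine-like protein, went from 0.420, 0.679 and 0.0423 CPM to 22.8, 32.1 and 3.65 CPM, with Runx1KO library 3 the lowest of its group (5.65, SE 1.06, adjusted p = 0.0290). Arhgap12, a GTPase-activating protein, went from 0.546, 1.40 and 1.82 CPM to 35.05, 26.9 and 61.8 CPM (5.03, SE 0.69, adjusted p = 0.00603). In all 3 genes every Runx1KO library lay above every Control library, by far in C4b and Arhgap12 and less evenly in Fam19a4.

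Foxo1, a forkhead transcription factor that is restrained by AKT signalling, rose with little spread. It stood at 3.32, 4.83 and 5.12 CPM in Control against 30.5, 29.0 and 31.4 CPM in Runx1KO (log2 fold change 2.77, SE 0.33, adjusted p = 0.00331). Of 18 tested FoxO factors and known targets it was the 1 called in the plain comparison, and the list had a median of 0.17 with 10 positive. S1pr1, the sphingosine-1-phosphate receptor that guides lymphocyte exit from tissues, was added with the block, at 5.88, 7.79 and 15.7 CPM against 19.6, 26.6 and 99.9 CPM (block adjusted p = 0.0353, plain 0.0935). Grb10, an adaptor that inhibits insulin receptor signalling, stood at 0.336, 0.479 and 0.296 CPM in Control against 3.97, 4.48 and 4.13 CPM in Runx1KO (3.48, SE 0.42, adjusted p = 0.00331).

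Other named rises were smaller or less even between libraries. Dmpk, the protein kinase of myotonic dystrophy, went from 3.95, 5.03 and 2.62 CPM to 20.4, 15.7 and 30.9 CPM (log2 fold change 2.53, SE 0.36, adjusted p = 0.00612). Lrrc8b, a subunit of the volume-regulated anion channel, went from 1.01, 1.20 and 0.888 CPM to 22.7, 17.9 and 2.35 CPM, so that library 3 of Runx1KO was nearest to Control (3.79, SE 0.77, adjusted p = 0.0412). The other 3 tested Lrrc8 subunits were positive and not called. Palld, an actin-bundling protein, had a log2 fold change of 4.17, Enc1, an actin-binding Kelch protein, of 3.54, Sbf2, a myotubularin-related protein, of 2.69, and F2r, the thrombin receptor PAR1, of 3.10.

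Cysteine protease inhibitors included several rises. Of 11 tested members, 3 were called higher (0.348% of all genes) and 0 lower, and 1 more was higher with the block (0.883% of all genes). The list median was 0.72, with 7 members positive and 4 negative. Ctla2a, an inhibitor of cathepsin L-like proteases, stood at 2.23, 1.24 and 3.09 CPM in Control against 20.3, 20.9 and 17.9 CPM in Runx1KO (log2 fold change 3.17, SE 0.37, adjusted p = 0.00331). Its neighbour Ctla2b went from 0.840, 1.24 and 2.50 CPM to 5.67, 4.08 and 7.82 CPM (block adjusted p = 0.00954, plain 0.0890). The stefin genes Stfa2 and Stfa3 had log2 fold changes of 2.66 (SE 0.41, adjusted p = 0.0109) and 2.31 (SE 0.36, adjusted p = 0.0117). Stefin A and Ctla2 genes each belong to a family of near-identical copies that can share reads, so the split between members is uncertain.

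Among called genes of the same minimum level, several large falls ended at or near 0. Fbxo10, an F-box protein of a ubiquitin ligase, stood at 23.4, 16.5 and 31.8 CPM in Control against 0.283, 0.222 and 0 CPM in Runx1KO (log2 fold change −7.15, SE 0.73, adjusted p = 0.00184). Cystm1, a small membrane protein, went from 50.1, 9.47 and 34.5 CPM to 0.243, 0.399 and 0.0701 CPM (−7.05, SE 0.85, adjusted p = 0.00331). Sema4f, a semaphorin of the membrane-bound class, went from 10.9, 7.87 and 7.19 CPM to 0.202, 0.266 and 0 CPM (−5.80, SE 0.84, adjusted p = 0.00625). Gpr141, an orphan G protein-coupled receptor, went from 109, 88.6 and 66.9 CPM to 1.58, 5.54 and 1.72 CPM (−4.91, SE 0.70, adjusted p = 0.00612). In each of these 4 genes the lowest Control library lay above the highest Runx1KO library by more than 10-fold.

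Cldn1, a tight junction claudin, was not called in the plain comparison (adjusted p = 0.0546) and was called with the block (0.00112). It stood at 39.4, 5.83 and 68.9 CPM in Control against 0 counts in all 3 Runx1KO libraries, at least 945-fold lower with a floor of 3 counts over the group. It was also at 0 counts in the 3 Runx1KO libraries after LPS, against 51.5, 9.66 and 234 CPM in Control. Other falls of large size were those of Ces1d, a carboxylesterase (log2 fold change −4.77, SE 0.92), Snai1, a transcriptional repressor (−4.49, SE 0.88), Ggt1, which cleaves glutathione (−4.30, SE 0.59), Tex15, known from male meiosis (−4.02, SE 0.73), Stk39, a kinase of ion cotransporters (−3.79, SE 0.51), and Cables1, a cyclin-dependent kinase partner (−3.51, SE 0.72).

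Of the lactate dehydrogenase genes Ldha and Ldhc fell, and no other tested gene of the glycolysis and lactate list passed in either fit. Ldha, the A subunit, stood at 827, 975 and 1007 CPM in Control against 156, 182 and 114 CPM in Runx1KO (log2 fold change −2.64, SE 0.26, adjusted p = 0.00184). Ldhc, the testis form encoded beside it, went from 36.4, 16.3 and 71.9 CPM to 0.850, 1.91 and 0.280 CPM (−5.37, SE 0.85, adjusted p = 0.0118). The processed copy Ldha-ps2 also fell (−2.63), and reads may be shared among the 3. Ldhb, the B subunit, was not called, at 4.07, 4.04 and 2.96 CPM against 2.75, 4.74 and 7.96 CPM. Of 28 tested glycolysis and lactate genes 0 were called higher and 2 lower, 23 were negative, and the median was −0.23, or −0.13 with library size alone as scaling. Pkm, pyruvate kinase, stood at 1715, 1861 and 1357 CPM against 1558, 1253 and 1387 CPM, with groups that overlapped. Slc16a3, the lactate exporter MCT4, stood at 334, 279 and 483 CPM against 269, 194 and 206 CPM and did not pass (adjusted p = 0.428).

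Receptors of the TGF-beta superfamily included 1 rise and 1 fall in the plain comparison, and both calls in the semaphorin list were falls. Acvrl1, the receptor kinase ALK1, stood at 160, 183 and 250 CPM in Control against 33.2, 25.7 and 26.6 CPM in Runx1KO (log2 fold change −2.80, SE 0.31, adjusted p = 0.00283). Bmpr1a, a BMP receptor kinase, was lower with the block only, at 17.97, 13.9 and 59.8 CPM against 3.24, 3.77 and 7.43 CPM (block adjusted p = 0.00154, plain 0.0753). Eng, the co-receptor endoglin, rose from 0.294, 0.200 and 0.296 CPM to 2.27, 1.51 and 2.35 CPM (2.93, SE 0.52, adjusted p = 0.0216). The remaining members of the 16 tested were not called in either fit, and the median was 0.18. Nrp1, a co-receptor of semaphorins and VEGF, fell from 28.1, 14.3 and 26.9 CPM to 1.29, 0.975 and 1.96 CPM (−4.02, SE 0.49, adjusted p = 0.00331), and Sema7a, a membrane-anchored semaphorin, fell on 109 counts against 3 (count ratio 38.0, 95% counting interval 12.7 to 187).

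Surface and signalling genes of moderate level also fell. Nt5e, the ecto-nucleotidase CD73, stood at 209, 346 and 581 CPM in Control against 57.4, 68.8 and 93.6 CPM in Runx1KO (log2 fold change −2.37). Trpm2, a cation channel opened by oxidative stress, stood at 223, 187 and 208 CPM against 89.4, 62.5 and 96.1 CPM (−1.32). The copines Cpne3 and Cpne2, calcium-dependent membrane-binding proteins, had log2 fold changes of −1.67 and −1.60. Tnfsf13b, the B cell survival factor BAFF, stood at 39.5, 21.8 and 27.8 CPM against 4.86, 7.40 and 6.27 CPM (−2.26). Il18r1, a chain of the IL-18 receptor, stood at 12.6, 7.51 and 8.29 CPM against 2.35, 1.06 and 1.61 CPM (−2.49). These 6 genes were called in the plain comparison, had groups that did not overlap, and were chosen for naming after their values were seen.

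**Figure D2:**
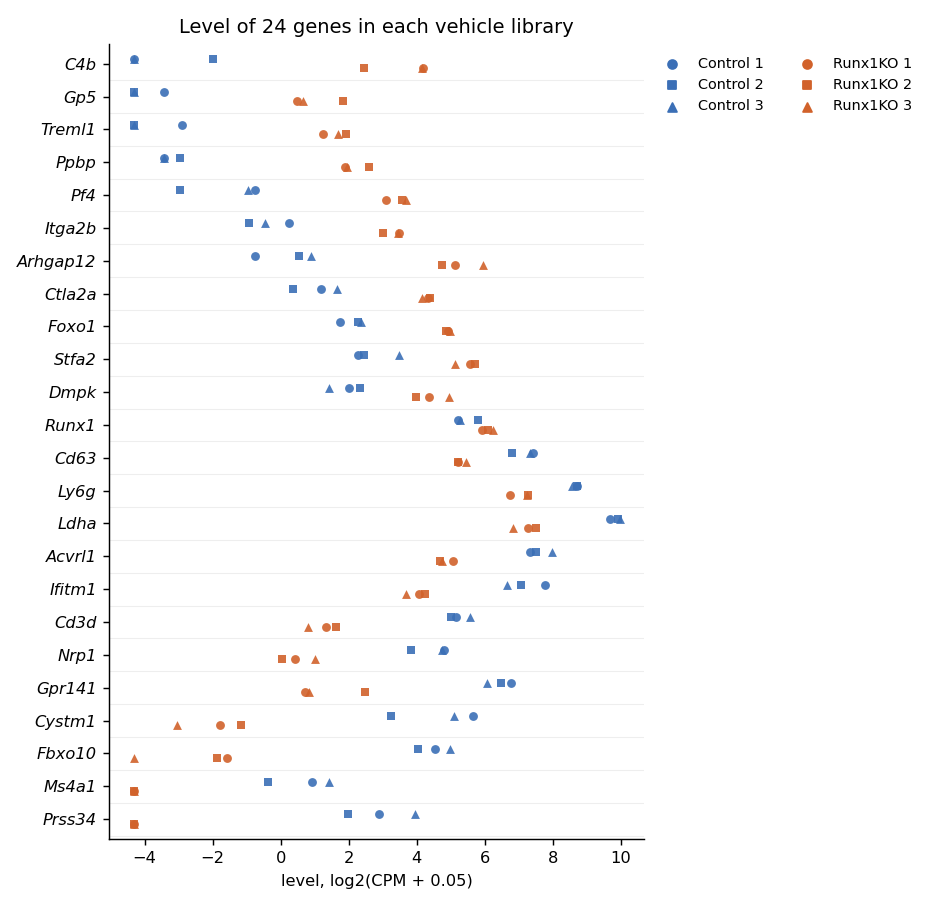
Level of 24 genes in each of the 6 vehicle libraries (horizontal axis, log2 of CPM plus 0.05), Control in blue and Runx1KO in orange, with a circle, square or triangle for libraries 1, 2 and 3. In all 24 the Control and Runx1KO points do not overlap, and the gap is smallest for Runx1.

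The promoters of 5 named genes that were called and had a match to the core sequence bound by RUNX proteins are shown because Runx1 is the targeted gene. The letters TGTGGT and TGCGGT were searched on both strands in the 250 bases before the start of transcription, in RefSeq promoters on GRCm38.p6. A match was present in 21.1% of the 8758 tested genes with a promoter in the table, in 25.6% of 39 genes called higher and in 23.1% of 52 called lower, and in 25.3% of 87 and 22.6% of 137 with the block. The shares lay near that of all tested genes. Of the 123 called genes, 91 matched a promoter. Genes of a chromosome set aside beforehand were not considered for display, so larger changes there were not ranked. The 5 shown are the 2 largest rises and 3 largest falls among 7 other named genes with a match and a single promoter in the table. Sequences read 5′ to 3′ along the gene's strand and end at the base before the start; capitals mark the matches, and no match shown overlaps another.
F2r, chr13:95618467-95618716, minus strand: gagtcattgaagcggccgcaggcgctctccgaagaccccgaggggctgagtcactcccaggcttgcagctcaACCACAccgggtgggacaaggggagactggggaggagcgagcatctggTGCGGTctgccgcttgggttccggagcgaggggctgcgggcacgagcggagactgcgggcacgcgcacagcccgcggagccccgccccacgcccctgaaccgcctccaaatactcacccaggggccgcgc
Stfa2, chr16:36408364-36408613, minus strand: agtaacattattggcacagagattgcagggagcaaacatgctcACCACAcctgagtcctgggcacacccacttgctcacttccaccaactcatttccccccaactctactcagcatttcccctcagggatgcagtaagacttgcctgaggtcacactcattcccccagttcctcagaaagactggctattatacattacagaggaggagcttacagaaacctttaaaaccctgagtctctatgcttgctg
Prss34, chr17:25298144-25298393, plus strand: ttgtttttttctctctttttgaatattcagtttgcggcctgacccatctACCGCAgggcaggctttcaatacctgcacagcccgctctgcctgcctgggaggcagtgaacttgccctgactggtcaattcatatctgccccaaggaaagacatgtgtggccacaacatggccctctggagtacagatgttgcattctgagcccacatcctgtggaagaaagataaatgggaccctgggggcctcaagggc
Mcpt8, chr14:56085198-56085447, minus strand: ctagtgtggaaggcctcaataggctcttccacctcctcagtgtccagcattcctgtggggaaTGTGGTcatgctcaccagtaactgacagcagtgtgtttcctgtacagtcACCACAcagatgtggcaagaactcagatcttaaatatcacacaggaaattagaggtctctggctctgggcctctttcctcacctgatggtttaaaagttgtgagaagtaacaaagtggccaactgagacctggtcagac
Sema7a, chr9:57939862-57940111, plus strand: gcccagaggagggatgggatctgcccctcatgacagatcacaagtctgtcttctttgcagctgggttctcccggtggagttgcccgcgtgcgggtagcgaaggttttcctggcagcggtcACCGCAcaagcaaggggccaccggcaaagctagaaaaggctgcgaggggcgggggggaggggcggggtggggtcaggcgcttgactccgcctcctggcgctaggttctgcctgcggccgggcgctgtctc
F2r and Mcpt8 each held 2 matches and the other promoters 1. In F2r the matches began 178 and 130 bases before the start, in Mcpt8 188 and 139 bases, in Stfa2 207, in Prss34 201 and in Sema7a 130 bases. F2r and Stfa2 rose and the basophil protease genes and Sema7a fell, so genes of both directions held the letters. A match is a run of letters and not a measured binding site.

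Called genes lay side by side in several places. Among 12303 pairs of tested genes next to each other, 19 pairs had both members called in at least 1 of the fits, and in all 19 pairs both moved the same way. Besides Ldha and Ldhc, Ctla2b and Ctla2a, and Stfa2 and Stfa3, they held the platelet chemokine genes Ppbp and Pf4, Dmwd and Dmpk, Galnt6 and Acvrl1, Galnt3 and Stk39, Lrrc75b and Ggt1, Krt86 and Krt83, and Sema7a and Cyp11a1. Cd86, a costimulatory ligand next to Stfa3, was higher with the block, at 8.73, 9.39 and 19.9 CPM in Control against 27.2, 36.1 and 55.7 CPM (block adjusted p = 0.00168, plain 0.0828). In 2 of the 19 pairs the genes overlap, and without a known strand setting their reads cannot be told apart. The Ldha, Ctla2 and stefin pairs are related copies that may share reads. The same holds for Krt86 and Krt83, and for Naip5 with Naip6 and Aldh3b3 with Aldh3b2, which were also among the 19. With 2.44% of all genes called with the block, some adjacent pairs are to be expected, and their number was not computed. The share of all adjacent pairs with equal direction was not computed either.

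Transcripts known from megakaryocytes and platelets were the list with the most rises. Of 20 tested members, 6 were called higher (0.348% of all genes) and 0 lower, and 10 were higher with the block (0.883% of all genes). Of the 20, 16 were positive with a median log2 fold change of 2.33, and in 15 the groups did not overlap with Runx1KO higher (5.42% of all genes). Itga2b, the integrin subunit CD41, stood at 1.13, 0.479 and 0.677 CPM in Control against 11.1, 8.07 and 10.8 CPM in Runx1KO (3.70, SE 0.49, adjusted p = 0.00501). Pf4, platelet factor 4, went from 0.546, 0.0799 and 0.465 CPM to 8.46, 11.9 and 12.8 CPM (4.91, SE 0.78, adjusted p = 0.0118). Both genes were lifted to a similar level in all 3 Runx1KO libraries.

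Other called members of the list had few counts in Control. Gp5, a subunit of the von Willebrand factor receptor, had 1 count in Control and 156 in Runx1KO (count ratio 149, 95% counting interval 26.4 to 5929, adjusted p = 0.00603), and Treml1 had 2 and 233 (111, 30.5 to 925, adjusted p = 0.0152). Ppbp, the precursor of a platelet chemokine, had 4 and 337 counts (log2 fold change 6.22, SE 1.17, adjusted p = 0.0290), and Alox12, the platelet lipoxygenase, 8 and 215 (4.64, SE 0.69, adjusted p = 0.00797). Among the members added by the block were Rab27b (4.80), Gp9 (2.43) and the platelet tubulin Tubb1 (2.45). Outside the list, Mmrn1, the platelet and endothelial protein multimerin (6.05), Clu, clusterin of platelet granules (5.64), and Cavin2, a caveola protein (4.50), rose and were chosen for naming after their values were seen.

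The list did not move as a whole. Thbs1, thrombospondin, which is not restricted to platelets, stood at 2723, 2323 and 7084 CPM in Control against 5029, 4106 and 336 CPM in Runx1KO, and it set the summed level of the list, 2536 to 7336 CPM in Control against 646 to 5316 CPM in Runx1KO. Itgb3, the partner of CD41 that other cells use as well, stood at 25.4, 33.5 and 26.5 CPM against 16.6, 19.3 and 16.8 CPM and was not called (−0.69, adjusted p = 0.392). Selp, P-selectin, and F5, coagulation factor V, overlapped between groups. In bulk RNA, a change in the number of cells of a type and a change in RNA per cell cannot be told apart.

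Of 18 tested erythroid members 0 were called in either fit. The median log2 fold change was 1.30 and 17 were positive. Alpha globin Hba-a1 stood at 307, 104 and 76.8 CPM in Control against 491, 760 and 58.5 CPM in Runx1KO. The mean log2 level of the list differed between Runx1KO and Control by 0.79, 2.24 and −0.48 in libraries 1, 2 and 3. For megakaryocyte and platelet genes the same differences were 2.14, 2.58 and 2.11. Thus in library 3 the platelet list was raised as much as in library 1 while the erythroid list was not raised. Gata1, a transcription factor of both lineages, stood at 0.672, 0.360 and 0.127 CPM against 1.82, 2.26 and 1.65 CPM and was not called (adjusted p = 0.142, block 0.0545).

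Of 10 tested stem and progenitor genes 2 were called higher, against 0.348% of all genes. Procr, the endothelial protein C receptor of stem cells, went from 0.0840, 0.0799 and 0.169 CPM to 1.54, 2.48 and 1.89 CPM (log2 fold change 4.09, SE 0.58, adjusted p = 0.00612). Slamf1, the stem cell marker CD150, had 1 count in Control and 46 in Runx1KO (count ratio 44.0, 95% counting interval 7.51 to 1775, adjusted p = 0.0272). Both are also expressed by megakaryocyte precursors or other blood cells. The other 8 tested members were not called and the median was 0.26. Kit stood at 8.57, 7.07 and 7.83 CPM against 7.24, 14.1 and 2.45 CPM, and Cd34 at 0.882, 0.440 and 2.16 CPM against 1.42, 2.31 and 6.24 CPM.

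Most basophil transcripts counted in Control were at or near 0 counts in Runx1KO. Of 6 tested basophil and mast cell genes, 2 were called lower (0.604% of all genes), 4 with the block (1.56% of all genes), and 0 higher. The median was −6.65, or −3.77 with genes at 0 counts set at their bound. Prss34, a basophil protease, stood at 7.43, 3.92 and 15.6 CPM in Control against 0 counts in Runx1KO, at least 224-fold lower (adjusted p = 0.0197). Mcpt8, another protease of basophils, stood at 2.23, 0.919 and 4.61 CPM against 0 counts, at least 64.5-fold lower (adjusted p = 0.0444). With the block Cd200r3 (30 counts against 0) and Cpa3 (31 against 3) were lower as well. Gata2, which mast cells and progenitors share, stood at 1.18, 0.599 and 2.16 CPM against 1.94, 0.931 and 1.58 CPM. Control library 2 was the lowest and library 3 the highest of its group in all these basophil genes. After LPS, Prss34 and Mcpt8 were again at 0 in Runx1KO, and Cd200r3 had a log2 fold change of −3.34. Cpa3 did not repeat its fall, at 0.45, 0.15 and 0.33 CPM in Control against 0.43, 0.22 and 0.22 CPM in Runx1KO (−0.08). Its difference between treatments was not called (edgeR adjusted p = 0.9999).

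Of 7 tested eosinophil genes 1 was lower (0.604% of all genes) and 0 higher, and the median was −1.06. Ear2, a ribonuclease of eosinophils, stood at 16.8, 3.56 and 15.4 CPM in Control against 0, 0 and 0.420 CPM in Runx1KO (log2 fold change −6.25, SE 1.28, adjusted p = 0.0416); reads may be split with its close paralogs, so its level is uncertain. Ccr3, the eotaxin receptor, went the other way with the block, from 0.798, 0.400 and 1.01 CPM to 2.10, 5.19 and 8.41 CPM (block adjusted p = 0.0484, plain 0.0957). Siglecf, which encodes the antigen excluded by the sort, stood at 9.28, 5.27 and 7.995 CPM against 6.60, 3.41 and 15.6 CPM, and the eosinophil peroxidase gene Epx at 0.0840, 0.280 and 1.61 CPM against 0, 0.222 and 0.701 CPM. Their part in the fall of Ear2 was not tested.

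Among 14 tested B lineage genes 3 were lower (0.604% of all genes) and 0 higher. With the block 4 were lower (1.56% of all genes), and the median was −1.60. Ms4a1, the surface protein CD20, stood at 1.85, 0.719 and 2.62 CPM in Control against 0 counts in Runx1KO, at least 43.2-fold lower (adjusted p = 0.00634). Fcmr, the Fc receptor for IgM, had 110 counts against 2 (count ratio 57.5, 95% counting interval 15.6 to 481, adjusted p = 0.0232). Cd79b, a chain of the B cell receptor complex, was lower with the block, at 11.5, 4.32 and 10.1 CPM against 1.34, 1.91 and 2.42 CPM (block adjusted p = 0.0218). Immunoglobulin transcripts did not follow: Ighm stood at 102, 56.2 and 115 CPM against 79.3, 125 and 105 CPM, and the pre-B cell genes Vpreb1 and Igll1 overlapped between groups.

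Further genes known from B cells fell outside that list. Cd72, a B cell co-receptor, stood at 5.46, 2.88 and 5.16 CPM in Control against 0.283, 0.222 and 0.210 CPM in Runx1KO (log2 fold change −4.21, SE 0.54, adjusted p = 0.00466). Spib, an Ets factor of B cells and plasmacytoid dendritic cells, had a log2 fold change of −3.32, Ikzf3, the lymphoid factor Aiolos, of −4.24, and Fcrla, an Fc receptor-like protein, of −3.58, and these 3 were chosen for naming after their values were seen. Ets1, an Ets factor of lymphocytes listed here with granulocyte factors, stood at 137, 144 and 160 CPM against 42.1, 31.4 and 19.03 CPM (−2.25, SE 0.46, adjusted p = 0.0412). The other 13 tested granulocyte transcription factors were not called (median −0.20).

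Of 12 tested T and NK cell genes only Cd3d was called, and it was lower. Cd3d, the delta chain of CD3, stood at 35.8, 32.4 and 47.4 CPM in Control against 2.47, 3.06 and 1.68 CPM in Runx1KO (log2 fold change −4.00, SE 0.30, adjusted p = 2.09e-04). Its partner Cd3g stood at 0.420, 0.0799 and 0.169 CPM against 0.0809, 0 and 0.491 CPM, and Cd3e was below the filter, with 4, 0 and 12 counts in Control and 3, 9 and 6 in Runx1KO. Cd3d thus had far more reads in Control than the other CD3 chains, without correction for transcript length. Positive and negative log2 fold changes were equal in number in this list, and the median was −0.03. Monocyte and macrophage genes gave 0 calls in 13 (median 0.64), and of 10 dendritic cell genes Itgax, the integrin CD11c, was lower with the block only (9.74, 7.47 and 23.2 CPM against 1.70, 2.17 and 11.5 CPM).

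**Figure D3:**
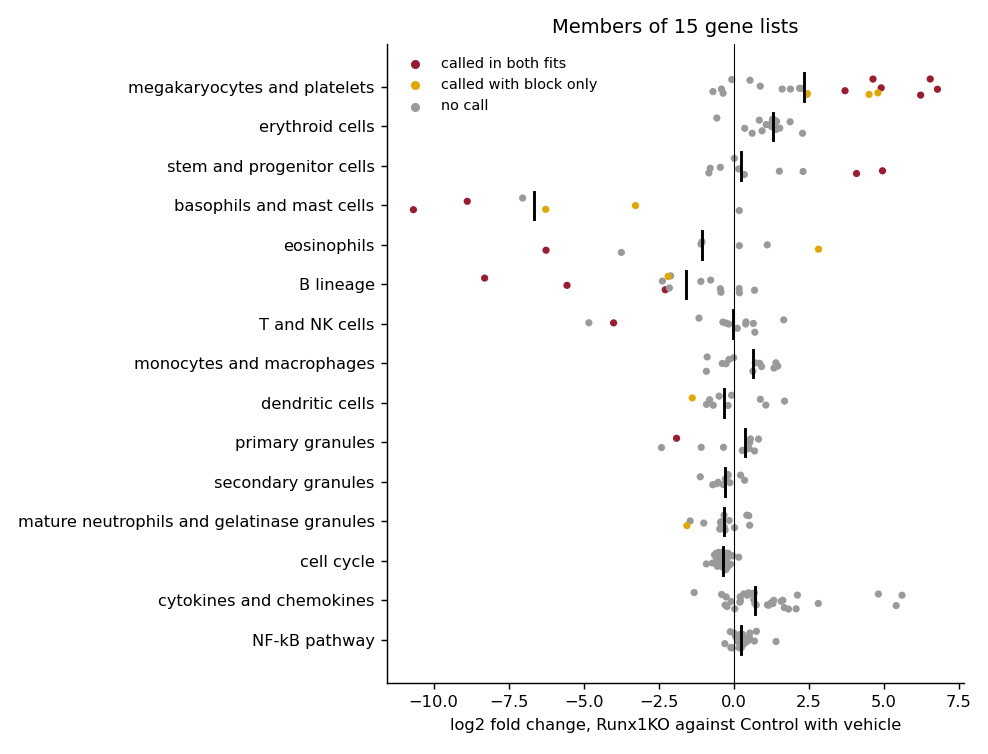
Log2 fold change of Runx1KO against Control with vehicle (horizontal axis) for the tested members of 15 gene lists, 1 point per gene, with the median as a black bar. Called members are dark red (both fits) or yellow (block only): those of the platelet list lie between 2.43 and 6.78, those of the basophil and B lineage lists below −2, and the cytokine and NF-kB lists have none.

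Few granule and maturation genes of neutrophils passed the test. Of 11 tested primary granule genes 1 was lower, of 11 secondary granule genes 0 were called, and of 16 genes of mature neutrophils and gelatinase granules 0 were called and 1 was lower with the block; the medians were 0.36, −0.28 and −0.33. The 95% interval of the log2 fold change lay within 1 of 0 for 1, 4 and 2 genes of these lists, so larger differences were not excluded for the others. Cd63, a tetraspanin of primary granules, stood at 170, 111 and 163 CPM in Control against 37.2, 37.1 and 44.1 CPM in Runx1KO (log2 fold change −1.91, SE 0.25, adjusted p = 0.00501); its processed copy Cd63-ps fell as well (−1.92), and the 2 may share reads. Mpo, myeloperoxidase, stood at 24.5, 28.5 and 110 CPM against 44.0, 64.1 and 124 CPM, and the elastase gene Elane at 11.7, 15.3 and 47.3 CPM against 17.5, 35.7 and 56.1 CPM. Library 3 was the highest of each group in both genes.

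Ly6g, the gene of an antigen used in the sort, was lower with the block. It stood at 418, 418 and 381 CPM in Control against 106, 154 and 152 CPM in Runx1KO (log2 fold change −1.56, SE 0.33, block adjusted p = 0.0334, plain 0.0521). Since the cells were selected on this protein, the level is that among Ly6G+ cells. Ceacam1 and Il1r2, surface proteins of mature neutrophils, had log2 fold changes of −1.001 and −1.46 and were not called. S100a9, a subunit of calprotectin, stood at 44370, 45530 and 48620 CPM against 29110, 41030 and 30110 CPM and was not called (adjusted p = 0.821). Adhesion receptors gave 0 plain calls in 19, and with the block Itga4, the alpha chain of VLA-4, was higher (12.5, 21.9 and 8.50 against 27.6, 49.6 and 40.1 CPM) and Itgb7 lower (19.9, 8.31 and 8.21 against 4.49, 2.44 and 3.65 CPM).

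None of 40 tested cell cycle genes passed in either fit. The median log2 fold change was −0.36, 39 were negative, and in 15 the groups did not overlap with Runx1KO lower, against 7.82% of all genes. Mki67, a marker of cycling cells, stood at 57.4, 60.4 and 51.4 CPM in Control against 62.7, 61.2 and 33.2 CPM in Runx1KO, and Tk1, thymidine kinase, at 12.1, 7.95 and 8.16 CPM against 4.33, 5.94 and 4.73 CPM (−0.91, adjusted p = 0.299). The mean level of the list was lower in Runx1KO by 0.16, 0.38 and 0.63 log2 in libraries 1, 2 and 3. Ribosomal protein genes had a median of 0.17 with 65 of 77 positive and 0 calls, but the mean difference was −0.18, 0.57 and 0.09 in libraries 1, 2 and 3 and so differed in sign.

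Cytokine and NF-kB transcripts gave no call with vehicle, in either fit. The 95% interval of the log2 fold change lay within 1 of 0 for 1 cytokine or chemokine and 5 NF-kB genes. Larger differences were not excluded for the other genes of these lists. Of 33 tested cytokines and chemokines 27 were positive (median 0.70), and of 25 NF-kB pathway genes 20 (median 0.25). Their levels differed far more between library numbers than between genotypes. Nfkbia, the inhibitor induced by NF-kB, stood at 3517, 3411 and 217 CPM in Control against 3796, 4607 and 397 CPM in Runx1KO. Tnf stood at 1281, 594 and 28.2 CPM against 1419, 1184 and 73.0 CPM, and Il1b at 4671, 3320 and 1023 CPM against 3458, 3650 and 265 CPM. In all 3 genes library 3 was the lowest of both groups.

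The mean log2 level of the NF-kB list was lower in library 3 than in the mean of libraries 1 and 2 by 1.87 in Control and by 2.05 in Runx1KO, while Runx1KO minus Control was 0.61, 0.14 and 0.19 in libraries 1, 2 and 3. For cytokines the drop in library 3 was 1.69 and 2.70, and Runx1KO minus Control was 0.37, 1.42 and −0.12. Both libraries numbered 3 lay below the other 4 in 18 of the 25 NF-kB genes, against 11.7% of all genes. Of 27 immediate-early genes Atf3, a stress-induced repressor, was lower with the block only, at 540, 70.4 and 178 CPM against 108, 38.6 and 17.3 CPM (block adjusted p = 0.0294, plain 0.697), being lower in Runx1KO within each number although the groups overlap.

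**Figure D4:**
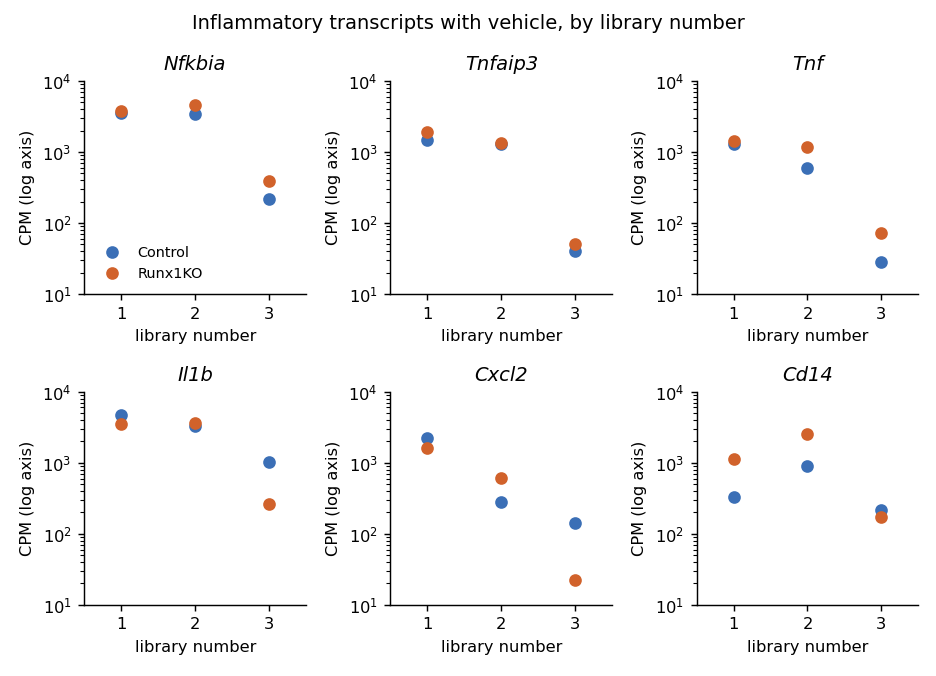
Level of 6 inflammatory transcripts (vertical log axis, CPM) in the vehicle libraries by library number, Control in blue and Runx1KO in orange. Library 3 is the lowest of its group in both genotypes for all 6 genes, and the ranges of the 2 groups overlap. At every number Runx1KO is above Control for Nfkbia, Tnfaip3 and Tnf, by as little as 0.009 log2 for Tnfaip3. For Il1b, Cxcl2 and Cd14 the direction differs between numbers, and none of the 6 was called.

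Cd14, the LPS co-receptor, stood at 335, 909 and 214 CPM in Control against 1124, 2559 and 174 CPM in Runx1KO and was not called. Of 27 Toll-like receptors and adaptors 0 were called in either fit (median 0.25, 20 positive); the mean level of that list was higher in Runx1KO by 0.32, 0.33 and 0.32 log2 in libraries 1, 2 and 3. Tlr4, the receptor for LPS, stood at 14.7, 5.55 and 24.6 CPM against 23.6, 17.3 and 30.6 CPM, higher in Runx1KO within each number (plain adjusted p = 0.960, block 0.200). Of 29 interferon-stimulated genes Ifitm1, a membrane protein that restricts virus entry, was the 1 called, at 218, 134 and 101 CPM in Control against 16.7, 18.8 and 12.9 CPM in Runx1KO (log2 fold change −3.22, SE 0.38, adjusted p = 0.00331). The groups were far apart for Ifitm1, and the median of the list was −0.04, or 0.05 with library size alone as scaling and 0.06 with the block. Oxidase and effector enzymes (17 tested), Fc receptors and lectins (12), apoptosis regulators (18), the unfolded protein response (17) and mitochondrially encoded transcripts (15) had 0 calls in both fits.

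Among the genes added by the block, Grap, an adaptor of the Grb2 family, stood at 3.74, 16.1 and 3.51 CPM in Control against 91.1, 181 and 76.6 CPM in Runx1KO (block log2 fold change 4.13, block adjusted p = 0.0205, plain 0.0873). Ecm1, an extracellular matrix protein, had a block log2 fold change of 3.73, Col5a3, a collagen chain, of 3.75, Plxnb3, a plexin, of 3.56, Plagl1, an imprinted zinc finger factor, of 3.24, Jam2, a junctional adhesion molecule, of 3.12, and Faim2, an inhibitor of Fas signalling, of 2.88. Among the falls were Rhov, a small GTPase (−3.88), Ncam1, the adhesion molecule CD56 (−3.84), Cd6, a T cell receptor of ALCAM (−3.74), Prnp, the prion protein (−3.36), Cd244a, a SLAM family receptor (−3.32), Agpat4, an acyltransferase (−3.19), and Hvcn1, the voltage-gated proton channel of phagocytes (−3.12). Hvcn1 stood at 31.7, 23.8 and 30.96 CPM in Control against 1.38, 7.58 and 2.63 CPM in Runx1KO.

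The libraries kept with LPS entered no fold change of the plain vehicle comparison but shared its filter and estimate of spread. With the block they also helped to set the number effects, and so entered the block fold changes. They gave the same direction for all 123 genes called in the plain comparison, against 70.5% of all genes tested. Since libraries of a number may share mice across treatments, the sets are not independent. In the LPS libraries 119 genes were called (0.921%), of which 87 were also called with vehicle in the same direction, 70.7% of the vehicle list and 73.1% of the LPS list. Of the 45 genes higher with vehicle, 44 had LPS groups that did not overlap with Runx1KO higher (6.51% of all genes), and 75 of the 78 lower had Runx1KO lower (6.76%). The median log2 fold change was 3.90 with vehicle and 3.31 with LPS for the genes higher, and −3.02 and −2.67 for those lower. Of these, 25 of the 45 and 45 of the 78 were nearer 0 with LPS. The genes were chosen by their vehicle test, which favours large vehicle values, so the smaller medians with LPS are no result.

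Single genes kept their size to differing degrees. Cd3d had a log2 fold change of −4.00 with vehicle and −4.63 with LPS, Nrp1 of −4.02 and −4.65, Ldha of −2.64 and −2.38, Foxo1 of 2.77 and 2.55, C4b of 7.55 and 7.69, and Itga2b of 3.70 and 3.38. Eng went from 2.93 to 1.04 and Procr from 4.09 to 2.56. Since both were chosen by their vehicle call, a smaller value with LPS does not by itself show a lost effect. The test of the difference between the genotype effects called 0 of 12917 genes (edgeR, smallest adjusted p = 0.9999; 77 at an unadjusted p below 0.05, 8 of them among the 123; 0 called with the block, with 185 at an unadjusted p below 0.05). A missed threshold does not show that the effects were equal.

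**Figure D5:**
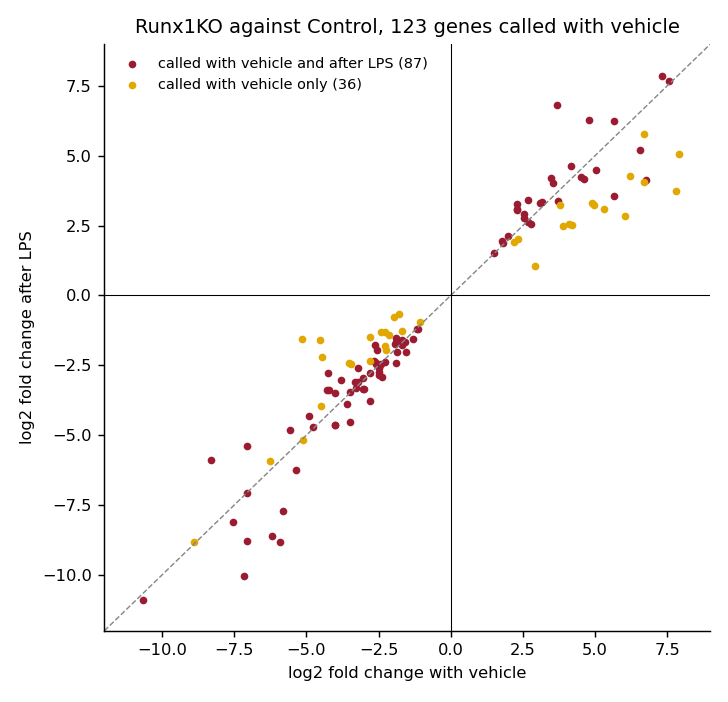
Log2 fold change of Runx1KO against Control with vehicle (horizontal axis) and after LPS (vertical axis) for the 123 genes called with vehicle, with the line of equal values dashed. All points lie in the quadrants of equal sign, and 87 were called in both treatments.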

How the data were processed

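Bulk RNA-seq of sorted mouse bone marrow neutrophils was analysed from the authors' deposited table of raw counts, whole numbers of reads for each gene with no scaling. The submitters' processing notes name STAR 2.6.0a, featureCounts and mm9; the sources used here state no annotation release, strand setting or filter. Columns were matched to samples by name, with 0 columns left over. Symbols came from a list of gene names; gene order and promoters came from GRCm38 tables, not the build of the alignment, and gave no coordinates for the counts.

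Genes were kept with filterByExpr, scaled by TMM and tested with edgeR 4.0.16 (R 4.3.3) by the quasi-likelihood test, fitting all 4 groups together, Benjamini-Hochberg adjusted over 12917 genes at 0.05. Intervals are 95%, SEs are those of the log2 fold change, and log2 CPM used a prior count of 2. Folds against 0 counts took 3 counts per group as the floor, and 1 to 3 counts gave a ratio with a counting interval; both cover counting error only, since reads carry no molecular identifiers. The same model with the library number as a block is given beside it. The numbers were taken as pairing the vehicle libraries because all 3 same-number correlations of these exceeded 0.1. This is a hint from the data, as the labels do not say what a number marks. The block also covered the LPS libraries, where library 3 of Runx1KO did not follow its number with vehicle. Its deviations correlated with vehicle library 3 of Runx1KO at r = 0.006 and of Control at r = −0.053. With LPS library 3 of Control they gave r = 0.445, and all other same-number pairs lay between 0.175 and 0.667. With 3 against 3 an exact permutation test of 1 gene cannot go below 0.1. The code was tested on simulated data.

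The rule names, among called genes whose groups do not overlap and whose mean log2 CPM is 0 or more, the 15 largest rises and 15 largest falls, the 8 largest of each added by the block, Runx1, and up to 6 called members per direction of 35 gene lists, leaving out predicted genes, receptor segments and pseudogenes. List members that were not called, and other genes said to be so, were chosen after their values were seen. The members and lists were chosen with earlier results of these data known. Values are not reported here for 2 called genes. Alternatives were the samples fitted, scaling, filters, DESeq2 1.42.0, limma-voom (limma 3.58.1) and libraries left out.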

Additional observations from a re-analysis of the deposited data

How the results depend on the processing

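The plain comparison called 45 genes higher and 78 lower. With the library number as a replicate block it called 114 and 201, and with the block in the 6 vehicle libraries alone 205 and 270. The unblocked fit of the 6 vehicle libraries alone (38 and 62), DESeq2 size factors in edgeR (46 and 77), no filter on low counts (66 and 117), a filter of 1 CPM in 3 libraries (41 and 74) and limma-voom (44 and 79) stayed within 1.5 times of both counts. DESeq2 called 158 and 228. Library size alone as scaling called 45 and 50, so that 47.4% of calls were higher against 36.6%, and moved the median of all genes to 0.088. Leaving out 1 vehicle library gave 15 to 29 higher and 32 to 50 lower, and leaving out all libraries of a number gave 0 to 3 and 1 to 3. No named gene changed sign at any setting. Of 49 named genes called, 35 stayed called at every setting that kept all 6 vehicle libraries, and 0 at every setting, since 49, 48 and 44 lost their call without numbers 1, 2 and 3, where fewer libraries were compared. In the LPS libraries, where the replicate block was an alternative chosen after seeing the data, it called 117 genes higher and 185 lower, against 45 and 74 without it. Precision was lower at low levels: the median SE of the log2 fold change was 0.43 over all genes and 0.32 at 10 CPM or more.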
